A study of Mus musculus with 2 samples.

Results

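The peptide transporters of solute carrier family 15 were examined in mouse intestinal epithelial cells that had been exposed to cholic acid or to vehicle. The members were Slc15a1, Slc15a2, Slc15a3 and Slc15a4, chosen as the non-control probes that carried one of these gene names on both arrays. This gave 4 probes of 55681, or 4 of the 23626 named genes on the array, with 1 probe and 1 spot for each gene. Matching by transcript accession found no further probe for any of them. Intestinal segments from wild-type male mice had been incubated for 2 h with 0.5 µM cholic acid, a primary bile acid, or with vehicle alone (DMSO at 0.05% plus ethanol at 0.25%), and RNA was then taken from the epithelial cells. The labels give neither the age of the mice nor their number, whether segments were pooled, or where along the intestine the segments lay, and they state the solvent for the vehicle alone. The title of the series names candidate bile acid-dependent targets of PPARα, a nuclear receptor for fatty acids. There was 1 array per condition, so no difference reported here has a replicate check and no test of the conditions was made.

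These carriers move small peptides across membranes together with protons, down a proton gradient. Slc15a1 encodes PepT1, the carrier of the intestinal brush border that brings dipeptides and tripeptides from digested protein into the enterocyte, along with peptide-like drugs. Slc15a2 encodes PepT2, its relative of higher affinity, best known from kidney and brain. Slc15a3 (PHT2) and Slc15a4 (PHT1) encode peptide and histidine carriers of endosomes and lysosomes, known above all from immune cells, where Slc15a4 supports signalling by endosomal Toll-like receptors. In rodent intestine, PPARα is known to take part in the induction of PepT1 by fasting.

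Each value below comes from a single 60-base probe, so the stretch of RNA that each probe reads is shown first. The start of the probe is given for 3 members (bases 1 to 30), and the whole probe for Slc15a3. No part is in capitals.
Slc15a1: aggcaatagtattgttttttctaacagttt
Slc15a2: ggtcagggaacgacgttgggaatattagga
Slc15a4: gggttctgagtttgtcaactgaactgttgt
Slc15a3: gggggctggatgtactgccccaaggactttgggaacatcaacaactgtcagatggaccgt
The probes lie, in mm9 coordinates per the file headers, at chr14:121859041-121859100 for Slc15a1, chr16:36750603-36750662 for Slc15a2 and chr5:128076053-128076112 for Slc15a4, all on the minus strand. The Slc15a3 probe lies on the plus strand at chr19:10931798-10932148. Its 60 bases span 351 bases of the genome, so its match to the genome is split, whereas the other probes each lie in 1 unbroken stretch. No mm9 gene models were used, so exons and UTRs are not assigned to the probes. The Slc15a1 probe was the poorest in G and C, at 28.3%, against 35% for Slc15a4, 45% for Slc15a2 and 55% for Slc15a3.

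Slc15a1, the brush border carrier, was lower on the cholic acid array. Its processed signal, the spot brightness after background subtraction and detrending within the array, was 6430 with vehicle and 1340 with cholic acid. The scanner software's own error of these single-spot values was 643 and 134. Both signals carried the scanner software's flag for a spot well above background, and neither spot was marked as saturated or as an outlier. As deposited, without any scaling between arrays, the signal was 4.80-fold lower in cholic acid. The arrays differed in general brightness, with the 75th percentile of probes well above background on both at 1060 (vehicle) and 741 (cholic acid). After each array was divided by that percentile, Slc15a1 was 3.35-fold lower in cholic acid, a log2 difference of -1.75 with an error of 0.20 propagated from the single-spot errors. That error describes the measurement on these arrays and not the spread between animals or segments.

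Among the 12810 genes that were well above background on both arrays, Slc15a1 had the 26th lowest difference, and 0.195% of genes were lower still. By size alone, 2.05% of these genes (263) stood 2-fold or more below vehicle in cholic acid, and 6.5% (833) stood 2-fold or more above it. The median difference of all genes was 0.08. Of the 1000 genes nearest to Slc15a1 in mean signal, 24 were at least 2-fold lower and only 2 were lower than Slc15a1. The spread of those 1000 differences was 0.38 (robust SD, log2 scale) around a median of -0.11. Slc15a1 therefore lay outside the bulk of genes measured at its brightness, in a range where repeated spots of 1 probe agreed closely. In the 40 repeatedly spotted probes nearest in signal, the SD of the log2 difference between spots had a median of 0.04.

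Slc15a4, the endolysosomal carrier PHT1, was also well above background on both arrays. Its signal was 705 with an error of 70.6 in vehicle and 398 with an error of 39.9 in cholic acid. After scaling it was 1.24-fold lower in cholic acid, a log2 difference of -0.31 with a propagated error of 0.20. Of all measured genes, 18.9% had a lower difference, so Slc15a4 lay within the bulk of genes and short of the 2-fold limit. Among the members, 1 of the 2 measured on both arrays was thus at least 2-fold lower, and none was at least 2-fold higher. The gap between Slc15a1 and Slc15a4 does not depend on any factor applied to a whole array: it was -1.44 on the log2 scale (2.71-fold), with a propagated error of 0.29.

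Slc15a2, the carrier PepT2, passed the background flag with cholic acid but not with vehicle. On the vehicle array the mean spot brightness was 65.6 over a local background of 62, and the software entered a fill-in value of 3.39 with an error of 3.40. On the cholic acid array the signal was 37.4 with an error of 4.90, from a mean spot brightness of 110 over a local background of 60. Because the vehicle side has no measured level, only a bound can be given: the cholic acid signal was set against the lowest signal that passed the flag on that array, 14.6. On this basis the scaled Slc15a2 signal was higher in cholic acid by at least 3.66-fold, or by at least 2.56-fold in the signals as deposited. A bound of at least 2-fold higher was found for 261 of the 23626 genes on the array (1.1%), and 67 of the 504 genes seen on the cholic acid array alone had a larger bound than Slc15a2. In the other direction, the bound reached 2-fold for 62 genes (0.262%). The signal was close to the floor of the array and rests on 1 spot. With normexp background correction the bound was 1.81-fold, short of the 2-fold limit.

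Slc15a3, the endolysosomal carrier PHT2, missed the background flag on both arrays. Its signal was 6.55 with an error of 3.23 in vehicle and 4.44 with an error of 2.97 in cholic acid, so the values overlapped within their errors and no fold is given. A dim probe was common, since 40.1% of named genes on the array had no probe well above background on either array. The related gene Slc15a5, which is no member, likewise missed the flag on both arrays, with signals of 3.39 (vehicle) and 3.16 (cholic acid).

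**Figure D1:**
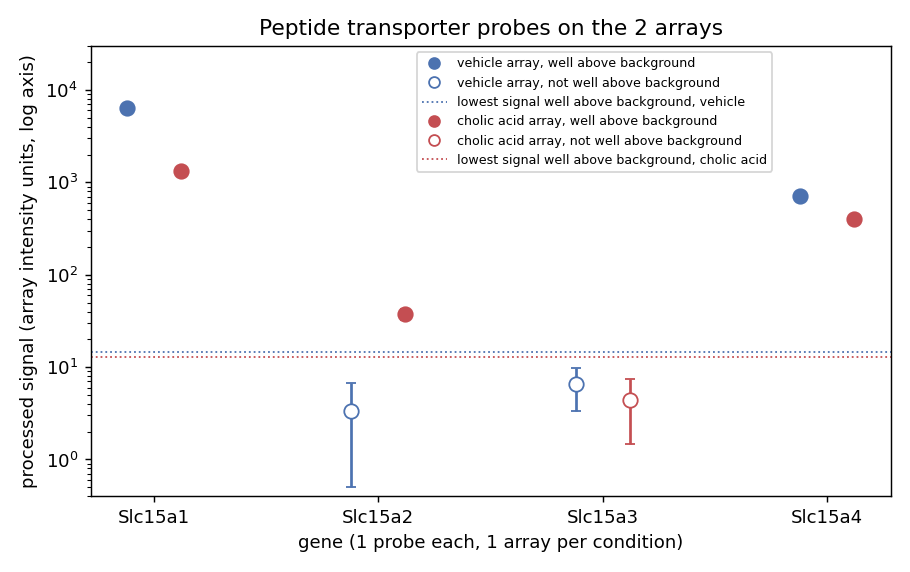
Processed signal (array intensity units, log axis) of the single probe of each peptide transporter on the vehicle and cholic acid arrays; filled points were well above background, open points were not, bars are the scanner software's error of 1 spot (hidden where shorter than the point, and cut at the axis for Slc15a2 in vehicle), and dotted lines mark the lowest signal that counted as well above background on each array. Slc15a1 stands at 6430 and 1340, Slc15a4 at 705 and 398, Slc15a2 lies above its dotted line with cholic acid alone, at 37.4, and both Slc15a3 points lie below them.

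Of the members, Slc15a1 alone was measured on both arrays and past the 2-fold limit, with the lower signal in cholic acid. Slc15a4, at -0.31, lay within the bulk of genes. Slc15a2 had only an upward bound, from 1 spot near the floor, and Slc15a3 could not be placed. No common direction of the family is read from these values. The levels of different members are not compared, because probes differ in how brightly they report the same amount of RNA.

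**Figure D2:**
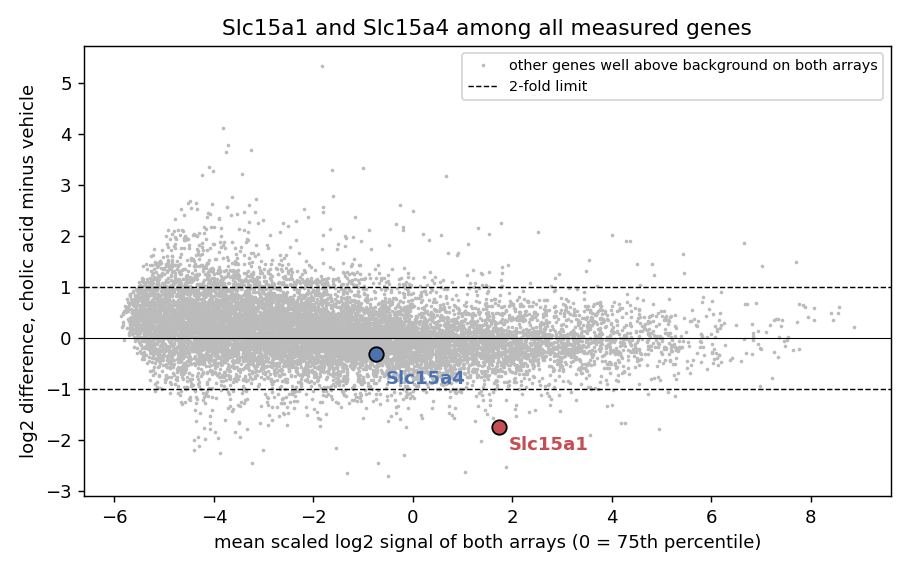
Log2 difference between the arrays (cholic acid minus vehicle) against mean scaled log2 signal for all 12810 genes well above background on both arrays, 1 gray point per gene, with Slc15a1 and Slc15a4 in colour and dashed lines at the 2-fold limit. Slc15a1 at -1.75 lies below the lower line, outside the band of genes of similar brightness, and Slc15a4 at -0.31 lies inside the band.

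The direction of the Slc15a1 difference and its side of the 2-fold limit held under other ways of processing the arrays, while its size varied. Of 12 alternatives, 4 concern dim probes, several probes or flagged spots and return the same value by construction, since Slc15a1 has 1 bright probe without an outlier flag. In the other 8 the log2 difference ran from -1.72 (loess on mean signal) to -2.6 (scaling on the spike-in probes, 6.06-fold lower). In the authors' deposited table of processed values Slc15a1 stood at 4630 in vehicle and 1170 in cholic acid. Measured from the all-gene median of each setting, it ran from -1.68 to -2.14. A correction for the G and C content of probes, which could matter for a probe so poor in these bases, left it at -1.75. Slc15a4 ran from -0.26 to -1.16 in the same 8 alternatives and passed the 2-fold limit with spike-in scaling alone, a setting in which 30.5% of all genes did.

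**Figure D3:**
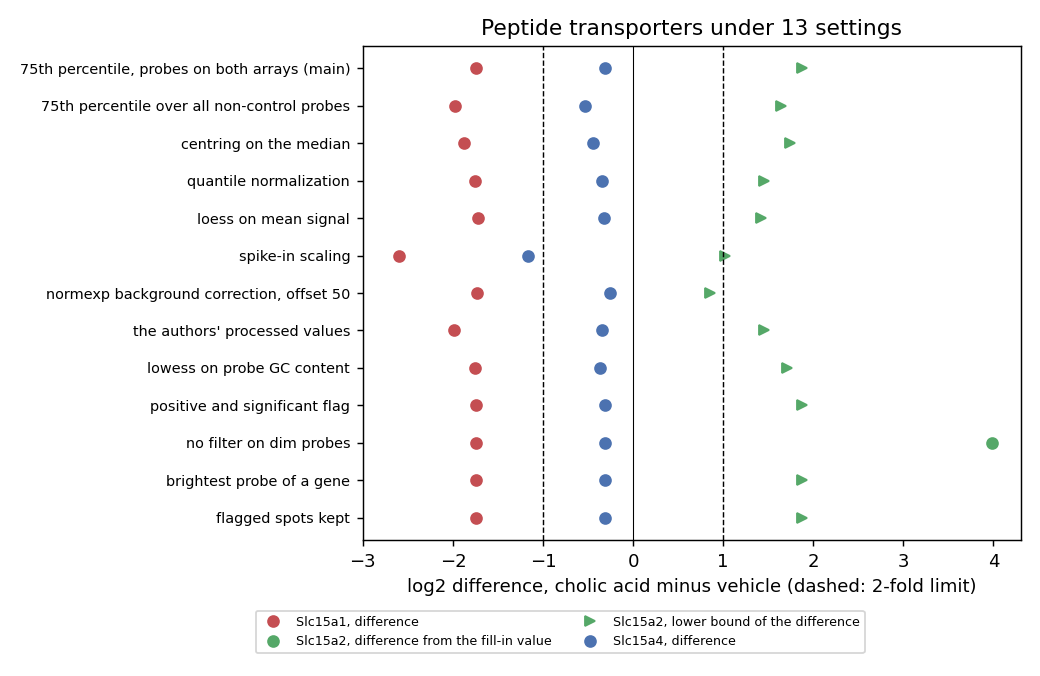
Log2 difference (cholic acid minus vehicle) of Slc15a1, Slc15a2 and Slc15a4 under 13 settings, 1 line per setting; circles are differences, triangles are lower bounds for Slc15a2, and dashed lines mark the 2-fold limit. The Slc15a1 points lie between -2.6 and -1.72, all left of the lower line, while the Slc15a2 bounds lie between 0.86 and 1.87 and the circle at 3.98 uses the fill-in value on the vehicle array.

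PepT1 works as 1 step of protein absorption, and the genes of the other steps were nearer to the bulk of genes. Brush border peptidases cut peptides down to the size that PepT1 carries. Of 14 listed, 12 were measured on both arrays, with 0 past the limit either way and a median of -0.24 against 0.08 for all genes. The neutral endopeptidase gene Mme was 1.93-fold lower and Ace, which encodes an enzyme that removes dipeptides from the ends of longer peptides, 1.64-fold lower. Cytosolic peptidases, which split the peptides inside the cell, had a median of -0.12 over 14 measured genes, again with 0 past the limit in either direction. Thop1 differed by 0.71, with both arrays dim (17.5 in vehicle, 20.0 in cholic acid), Nln by -0.39 and the carnosine-type dipeptidase gene Cndp2 by -0.33.

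The proton gradient that drives PepT1 is kept up by sodium-proton exchange at the apical membrane. None of the 15 genes listed for this supply passed the limit, and their median was -0.25. The exchanger gene Slc9a2 (NHE2) came nearest to it, with signals of 2710 in vehicle and 949 in cholic acid and a log2 difference of -0.997, just short of the limit. Slc9a3 (NHE3), the main apical exchanger of absorptive cells, was 1.84-fold lower with its 2 probes going the same way, and the carbonic anhydrase gene Car2 was 1.56-fold lower. Slc9a3r1, a scaffold of the exchanger, differed by -0.27, and Pdzk1, a scaffold of apical carriers, by 0.05. These scaffold genes were picked after their values were seen.

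Carriers of free amino acids, the other route for digested protein, had a median of -0.05 over 15 of 20 listed genes, with 0 at least 2-fold lower. Slc7a5, a subunit of a carrier for large neutral amino acids, was 2.34-fold higher, although both signals were dim, at 20.8 with vehicle and 34.0 with cholic acid. Slc38a2, a sodium-coupled carrier of small neutral amino acids, was 1.94-fold lower and the basolateral Slc7a8 1.82-fold lower. Slc6a19, the main apical carrier of neutral amino acids, differed by 0.06. Slc7a9, of the apical cystine carrier, differed by 0.21 and Slc3a1, of the same carrier, by -0.42. These genes were picked after their values were seen. Among carriers that also run on protons, 7 of 11 were measured. The folate carrier gene Slc46a1 (PCFT) was 5.79-fold lower, from signals of 9298 to 1122, a larger difference than that of Slc15a1. The monocarboxylate carrier gene Slc16a1, dim at 22.6 and 31.6, reached the limit at 2.00-fold higher, Slc16a3 differed by -0.68, and the list median was 0.08, the same as for all genes to 2 decimals.

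Transcription factors described as regulators of PepT1 were not past the 2-fold limit. In this list 8 of 9 were measured, with a median of -0.26. Nfe2l2, which encodes the oxidative stress factor NRF2, was 1.73-fold lower, and the intestinal factor Cdx1 differed by 0.34. Cdx2, described as an activator of the PepT1 gene in the intestine, differed by 0.23, and Ppara by -0.22 with its 3 probes not all going the same way; these 2 genes were picked after their values were seen. Targets of PPARα had a median of -0.21 over 28 of 32 measured genes, of which 4 passed the 2-fold limit, all downward. Among them were the mitochondrial carnitine carrier Slc25a20 (2.67-fold), the carnitine uptake carrier Slc22a5 (2.53-fold) and the fatty acid carrier Cd36 (2.28-fold). By count, 23 of these 28 targets lay below 0, against 42.7% of all measured genes, and 10 of 12 enterocyte markers also lay below 0. A count around 0 moves with any factor applied to a whole array. The median of all genes was 0.08 here and -0.05 with median centring. Brightness was not matched in this count, and the 1000 genes nearest to Slc15a1 in signal had a median of -0.11.

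**Figure D4:**
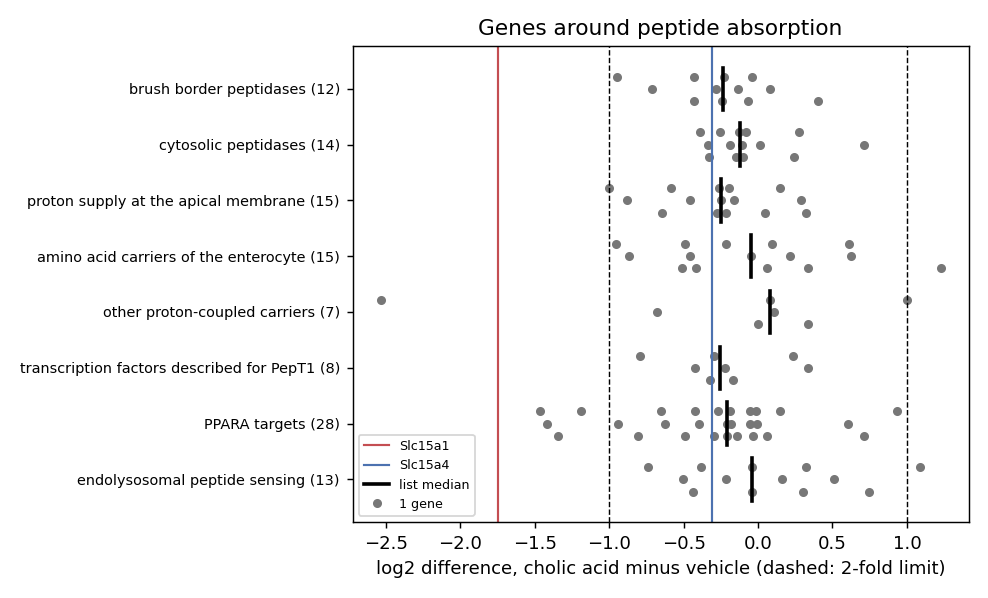
Log2 differences (cholic acid minus vehicle) of the genes of 8 lists around peptide transport, 1 gray point per gene well above background on both arrays with the number of genes in brackets, a black bar at each list's median, coloured lines at Slc15a1 and Slc15a4 and dashed lines at the 2-fold limit. The list medians lie between -0.26 and 0.08, and Slc46a1 is the 1 listed gene left of the Slc15a1 line.

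Slc15a4 and Slc15a3 are known to act with sensors of bacterial peptides and nucleic acids in endosomes, and 13 of 16 listed genes of that group were measured. Their median was -0.04, with 1 at least 2-fold higher and 0 lower. The gene past the limit was Irf5, an interferon regulatory factor that acts downstream of Slc15a4 in immune cells, 2.13-fold higher although dim, at 23.8 with vehicle and 35.4 with cholic acid. Nod1, a cytosolic sensor of bacterial cell wall peptides, differed by 0.74 and Irf7 by -0.74. Relative to the median of all genes, each of these lists lay lower in all 12 alternatives, except the proton-coupled carriers, which lay lower in 7 and higher in 5. A factor applied to a whole array leaves that distance unchanged by construction.

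Among all other named genes, those whose difference between these 2 arrays came nearest to Slc15a1 were Apoa2, an apolipoprotein (-1.73), Lrat, the enzyme that esterifies retinol (-1.77), and Ankrd37 (-1.73). Those nearest to Slc15a4 were Tbcd, Tmc5 and Ddx58, each at -0.31. With 2 arrays this likeness rests on 1 difference per gene, and many genes lie near -0.31.

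The labelled cell type, intestinal epithelium, was checked against its markers. All 12 enterocyte markers were well above background on both arrays, with a median of -0.44 and 10 of 12 below 0. The apolipoprotein gene Apoa4 was 3.45-fold lower, about as far as Slc15a1, the sucrase-isomaltase gene Sis differed by -0.68 and Apoa1 by -0.61. The summed signal of the list, in units of the array's 75th percentile, was 1378 in vehicle and 1414 in cholic acid. That sum leans on Fabp2 (0.61) and Anpep (0.40), which are very bright and were the 2 markers above 0. The part of a lower enterocyte signal in the Slc15a1 difference was not tested. In RNA from a whole epithelial preparation, fewer cells of a type and less RNA per cell cannot be told apart.

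Markers of position along the small intestine included differences larger than that of Slc15a1. On the distal side, the ileal bile acid binding protein gene Fabp6 was 39.9-fold higher in cholic acid (signals of 47.3 and 1320), the ileal bile acid carrier gene Slc10a2 was 4.79-fold higher and the proglucagon gene Gcg 2.02-fold higher. Cubn, the 1 distal marker below 0, was 1.92-fold lower in cholic acid (signals of 1573 and 573). The 8 distal markers had a median of 0.62 and summed signals of 54.0 and 67.7. The distal sum leans on Guca2a (0.28) and Slc51a (0.26), the brightest genes of that list. Cubn, Guca2a and Slc51a were picked after their values were seen. On the proximal side, the transcription factor gene Onecut2 was 4.92-fold lower, Apoa4 was 3.45-fold lower as above, and the calcium-binding protein gene S100g was 6.12-fold higher. The proximal list had a median of -0.27 over 7 of 8, with summed signals of 342 and 243. Whether the segments of both arrays came from the same stretch of intestine is not stated, and the part of position in the Slc15a1 difference was not tested. Fabp6 and Slc10a2 are also genes of bile acid handling. With 1 array per condition, position and the cholic acid treatment cannot be told apart in their values.

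Other cell types differed between the arrays too. T cell markers had a median of 0.86 over 12 of 13 listed genes and summed signals of 111 and 170, with 5 genes at least 2-fold higher. On the log2 scale these were Lat at 2.38, Cd2 at 2.57, Cd8b1 at 1.07, Cd3d at 1.09 and Gzmb at 1.17. Of these, Cd2 was dim in vehicle, at 32.6. Cd4 went the other way, at -0.71 (signals of 13200 and 5650), the 1 T cell marker below 0. The T cell sum leans on Gzma, by far the brightest of the list, which differed by 0.67. B and plasma cell markers had a median of 1.49 over 6 of 8 and a summed signal 1.22 times as high in cholic acid as in vehicle. Cd79b (6.83-fold), Pou2af1 (6.06-fold), Cd79a (2.91-fold) and Mzb1 (2.73-fold) were past the limit, and Ms4a1 passed the background flag with cholic acid only. Of these, Pou2af1 and Cd79a were dim in vehicle, at 43.7 and 39.2. Blnk went the other way, at -0.26 (signals of 1180 and 687), the 1 measured marker of this list below 0. The B and plasma cell sum leans on Jchain, the brightest of the list, which differed by 0.02 (signals of 3100 and 2190). Fibroblast markers had a median of 0.91 over 6 of 8 and summed signals of 1.27 and 3.70, with Thy1 4.11-fold, Dcn 3.03-fold and Vim 2.38-fold higher. Smooth muscle markers had a median of 0.98 over 5 of 7 and summed signals of 0.861 and 1.15, with Cnn1 3.34-fold, Myl9 2.01-fold and Acta2 1.98-fold higher. Their signals were dim in vehicle and cholic acid: 15.8 and 36.9 for Cnn1, 88.8 and 125 for Myl9, 44.9 and 62.0 for Acta2. The vehicle value of Cnn1 lay close to 14.6, the lowest signal that passed the flag on that array. The goblet list had a median of 0.07 (406 and 382), with Spdef at 0.37, Fcgbp at 0.26 and Zg16 at -0.22. The Paneth list had a median of -0.25 (17.0 and 14.7), with Mptx1 2.14-fold lower, Mmp7 at -0.57 and Lyz1 at -0.29. Ang4 went the other way, at 0.26 (signals of 1350 and 1130), the 1 measured Paneth marker above 0. Itln1 differed by -0.21, with its 3 probes not all going the same way. The part of these cells in the Slc15 values was not tested.

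Slc15a2 is known from enteric glia and macrophages. Of 9 markers of glia and nerve, 1 was measured on both arrays (Elavl4, 0.71), 2 were seen on the cholic acid array alone, with a bound of 2.49-fold for Ret, and the other 6, with the glial genes Gfap, S100b and Sox10, were on neither. Macrophage and dendritic cell markers had a median of 0.17 over 12 of 14, with summed signals of 5.72 and 6.40. Among them Itgax was 2.09-fold higher, Cd14 differed by -0.46 and Fcer1g by 0.45, and Lyz2 was seen on the cholic acid array alone, at least 2.74-fold higher.

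The sequence before the Slc15a1 start site is shown because the series asks about transcriptional targets of PPARα. It was taken from a RefSeq promoter table on GRCm38.p6, a different build from the probe positions, and holds the 250 bases at chr14:121505255-121505504 on the minus strand.
Slc15a1: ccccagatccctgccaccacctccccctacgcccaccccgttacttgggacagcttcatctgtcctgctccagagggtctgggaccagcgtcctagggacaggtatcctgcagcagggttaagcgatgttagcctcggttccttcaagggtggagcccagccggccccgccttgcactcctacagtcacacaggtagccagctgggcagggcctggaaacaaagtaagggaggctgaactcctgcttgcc
The window was searched, with 50 bases past the start, on both strands for 5 motifs: the nuclear receptor half-site AGGTCA, its direct repeat with 1 base between (direct repeat 1), the type PPARα binds and one that contains the half-site, the GC box GGGCGG, the CDX core TTTAT and CCAAT. No match was found, so no letters are in capitals. In the 32851 promoter windows of the table, the half-site occurred in 16.3%, the direct repeat in 0.0396%, the GC box in 35.7%, the CDX core in 13143 windows and CCAAT in 37.4%. The window of Slc15a2 held 1 GC box, and that of Slc15a4 held 1 half-site and 2 GC boxes. A match or its absence in these letters describes the window and says nothing of binding.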

How the data were processed

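RNA from 1 vehicle sample and 1 cholic acid sample was amplified, labelled with Cy3 and hybridised to 1-colour arrays, per the labels' protocols; both arrays lay on 1 slide and were read in 1 scan. The deposited scanner files hold spot intensities and 0 or 1 flags from Agilent Feature Extraction 10.7.1.1 for array design 028005, per the file headers, whereas version 9.5.1.1 is named in the submitters' processing notes. The authors' deposited table of processed intensities has the same distribution in both columns, on a linear scale; how it was made is not given in the sources used here.

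Spots that the software marked as non-uniform or as population outliers were dropped (124 and 119). Log2 signals were averaged per probe and, since only 40.6% of probes passed the background flag on both arrays, scaled on the 75th percentile of those probes. Genes were named by accession or symbol. Probes of 1 gene that passed the flag on both arrays were averaged. A gene seen on 1 array alone got a bound. "At least 2-fold" is a size, not a test. Named genes were all members, the list genes past 2-fold or up to 3 with the largest difference, and the 3 genes nearest in difference. Others were added after their values were seen. These were Slc15a5, Slc9a3r1, Pdzk1, Slc6a19, Slc7a9, Slc3a1, Fabp2, Anpep, Cdx2, Ppara, Cd4, Gzma, Blnk, Jchain, Ang4, Itln1, Cubn, Guca2a, Slc51a and the markers named by array. A few list genes within this rule were left unreported. The members, the lists and the alternatives were chosen with earlier results of these data known. The main scaling and the gene averages were tested on simulated data, with noise smaller than the spread of the real differences. The bounds, the background flags, the naming of genes and the alternatives were not part of that test. Python 3.11.15, statsmodels 0.14.6 and limma 3.58.1 (normexp, offset 50) were used. The number of arrays limits the precision.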

Additional observations from a re-analysis of the deposited data

How the results depend on the processing

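The Slc15a1 difference kept its direction and its side of the 2-fold limit under the 12 alternatives tried, 4 of which could not change it, and was largest with spike-in scaling (6.06-fold lower). The Slc15a2 bound fell short of 2-fold with normexp (0.86 on the log2 scale), and Slc15a4 passed it with spike-in scaling (-1.16); in the other alternatives both kept their side. Slc15a3 had a value only where dim probes were let in, -0.04 with the positive and significant flag and without a filter. The count of genes at least 2-fold higher, 833, was 421 with the percentile over all probes and 543 with median centring. It was 442 with quantile normalization, 497 with loess, 114 with spike-ins, 268 with normexp and 446 in the authors' values. It was 561 after the GC correction, 1912 with the positive and significant flag and 2902 without a filter. The count lower, 263, was 539 with the percentile over all probes, 392 with median centring, 419 with quantile normalization and 375 with loess. It was 3902 with spike-ins, 104 with normexp, 423 in the authors' values, 378 after the GC correction, 450 with the flag and 619 without a filter. At 1.5-fold and 3-fold the counts were 2269 and 176 higher, and 985 and 42 lower. Higher genes were 76.0% of calls, but 43.9% with the percentile over all probes, 58.1% with median centring, 51.3% with quantile normalization, 57.0% with loess, 2.84% with spike-ins, 51.3% in the authors' values and 59.7% after the GC correction. The median of all genes shifted by -0.23, -0.13, -0.15, -0.12, -0.85, -0.15 and -0.13 in that order, by 0.10 with normexp and by 0.31 without a filter. The share of genes lower than Slc15a1, 0.195%, ran from 0.0781% with normexp to 0.626% without a filter on dim probes; factors applied to a whole array leave it unchanged by construction. No replicate could be left out, and no paired analysis was possible because there was 1 array per group. Signal over background limits what can be said of Slc15a2 and Slc15a3.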
